A study of Caenorhabditis elegans with 2 samples.

Results

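E-boxes are short DNA sites bound by pairs of basic helix-loop-helix (bHLH) proteins, and the regions described here hold such a site at the summit of HLH-4 signal while lying away from every protein-coding gene start. HLH-4 is a bHLH protein of the Achaete-Scute family of Caenorhabditis elegans, known for its role in the ADL chemosensory neurons, and proteins of this family bind E-boxes together with a partner such as HLH-2. Proteins of this family are known to bind at sites in introns and between genes as well as at promoters.

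The chromatin came from 1 group of 2 biological replicates of whole L1 larvae. The worms were hermaphrodites of strain OP523, which carries unc-119(tm4063) on chromosome III and the integrated transgene wgIs523, and both replicates share this genotype. The transgene encodes HLH-4 tagged with GFP-FLAG at its C terminus, larvae were collected 6 hours after synchronization by starvation following bleaching, and an antibody to GFP precipitated the sonicated chromatin. Whole larvae were used, so a region cannot be assigned to a cell type, and neither an untagged strain nor a control library was analysed here. All 4 deposited lists used refer to the ce11 (WBcel235) genome, and read depth is unknown.

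Of the 30000 regions of the list called on the pooled replicates, the regions with the highest deposited signal value were considered, 4 times as many as there are optimal peaks, and 252 of these are the distal E-box regions. Optimal peaks are those that passed the authors' reproducibility threshold, and all of them rank above every other region of the pooled list. The distal E-box regions were selected on signal and on sequence: each has a CACCTG hexamer, read on either strand, or a CAGCTG hexamer wholly within 50 bp of the summit, a window of 101 bp. The summit of each also lies more than 2000 bp upstream or more than 500 bp downstream of every protein-coding gene start of Ensembl release 115. Of the strongest regions, 1065 had distal summits, so that 23.7% of the distal summits had an E-box and 813 had none. Another 264 of the strongest regions had an E-box at a promoter summit.

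E-box presence and signal were both part of the selection, so the following shares are a description. Among distal summits 122 of 222 (55.0%) had an E-box among the optimal peaks. In the 3 following blocks of as many regions each, in order of signal, the share was 72 of 258 (27.9%), 33 of 269 (12.3%) and 25 of 316 (7.91%). It was 6.52% among the regions that came next, as many again as the strongest ones together, and 4.58% among the 8739 distal summits from rank 15001 on (lower-ranked regions below). Promoter summits had shares of 46.1% among the optimal peaks and 6.55% in the weakest block of the strongest regions.

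**Figure D1:**
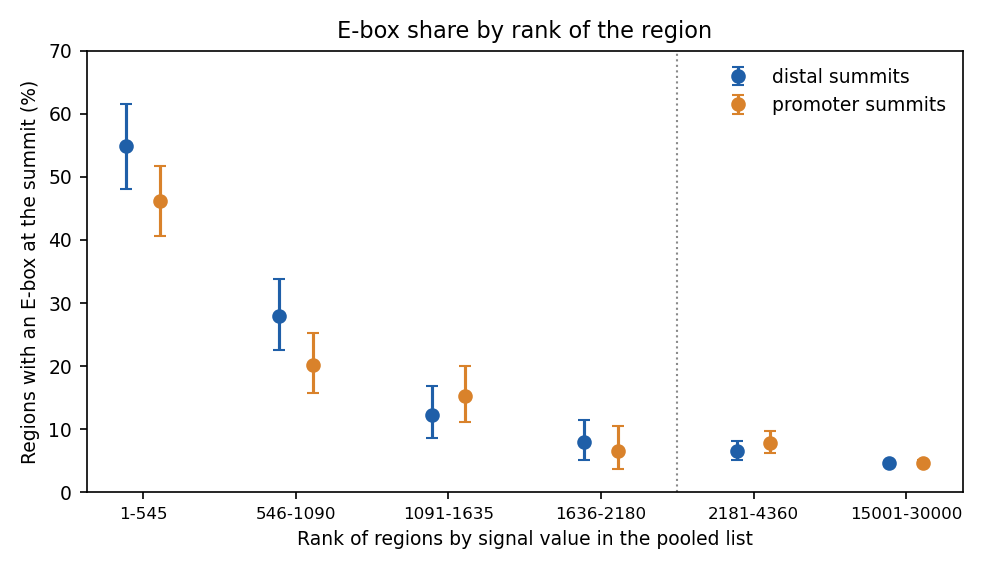
Share of regions with an E-box within 50 bp of the summit (percent, y axis) by rank of the region's pooled signal value (x axis), for distal and promoter summits, with 95% Clopper-Pearson intervals that cover counting error only. The dotted line marks the rank limit of the strongest regions. The distal share was 55.0% among the optimal peaks and 7.91% in the last block before the limit.

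The following 101-bp windows, each centred on the summit and read on the + strand of the RefSeq WBcel235 sequence, show 5 of the strongest regions and both regions with 3 E-boxes. Capitals mark the E-boxes and any TTC and GAA separated by 3 bases (TTCNNNGAA), a pair of triplets described below. The windows are X:12022646-12022746 (named by the nearest gene start, B0198.2), X:7886335-7886435 (pcyt-2.2), X:13347387-13347487 (mxl-3), II:9279166-9279266 (gldi-3), V:9901290-9901390 (egl-47), X:16459964-16460064 (nas-39) and V:3446891-3446991 (cfz-2).
B0198.2: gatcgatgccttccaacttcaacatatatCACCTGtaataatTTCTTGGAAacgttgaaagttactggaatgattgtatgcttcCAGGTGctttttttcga
pcyt-2.2: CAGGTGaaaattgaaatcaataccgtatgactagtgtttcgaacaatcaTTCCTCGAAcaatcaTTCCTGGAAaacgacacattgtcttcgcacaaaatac
mxl-3: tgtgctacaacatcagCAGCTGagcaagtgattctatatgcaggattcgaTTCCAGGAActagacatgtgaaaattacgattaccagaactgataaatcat
gldi-3: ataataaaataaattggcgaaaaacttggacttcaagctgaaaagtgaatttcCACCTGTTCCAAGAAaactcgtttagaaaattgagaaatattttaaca
egl-47: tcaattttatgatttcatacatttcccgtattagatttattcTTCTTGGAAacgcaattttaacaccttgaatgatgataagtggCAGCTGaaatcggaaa
nas-39: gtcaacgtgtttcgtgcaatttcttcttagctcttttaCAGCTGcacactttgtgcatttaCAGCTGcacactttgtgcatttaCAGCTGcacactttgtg
cfz-2: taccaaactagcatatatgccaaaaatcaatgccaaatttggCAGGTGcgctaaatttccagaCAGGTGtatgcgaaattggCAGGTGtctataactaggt

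The strongest region of the whole pooled list was a distal E-box region. It lay between genes on chromosome X at 12022603-12022837, 3043 bp upstream of B0198.2, with 2 CACCTG sites, and its signal value was 379.5 pooled, 173.3 in replicate 1 and 214.9 in replicate 2. It ranked 1 in both replicate lists. The signal value is the authors' own, how it was normalized is not known, and it is used only to describe and rank regions within 1 list.

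The next strongest lay in an intron of pcyt-2.2, a gene of phosphatidylethanolamine synthesis, with a pooled signal value of 232.3 and values of 98.4 and 135.5 in replicates 1 and 2. The region at rank 14, in an intron of the patched-related gene ptr-24 and 3367 bp downstream of the start of mxl-3, a bHLH gene, had 172.4 pooled and 66.5 and 107.8 in the replicates. Its only E-box was CAGCTG. These regions stood among the highest of both replicate lists.

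The 20 strongest members were all optimal peaks, 11 in introns and 9 between genes, and 13 were on chromosomes V or X. Besides those above they included regions in introns of gldi-3 (rank 30), egl-47 (rank 32), a receptor gene of the egg-laying circuit, pptr-2 (rank 33), a regulatory subunit of protein phosphatase 2A, ncs-5 (rank 37), a neuronal calcium sensor, and glb-27 (rank 41), a globin. The region nearest the start of cpg-20 (rank 62) lay in intron 1 of kcc-2, a potassium-chloride cotransporter, an intron of 21046 bp, 17404 bp from the nearest gene start. Other introns held the regions at C46C11.3 (rank 43), dmd-6 (rank 66), a DM-domain factor gene, and lin-28 (rank 76), a heterochronic gene.

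Between genes lay the regions nearest acl-12 (rank 22), oac-24 (rank 23), C13G3.1 (rank 51), mks-2 (rank 55), a gene of the ciliary transition zone, F42C5.5 (rank 68) and F32D8.1 (rank 72). The remaining pair, at ranks 9 and 24, lay near the pseudogenes srz-92 and srh-221 and is described with the pseudogenes. A nearest gene start names a position and does not identify a target.

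Pooled signal values of the 252 members ran from 25.87 to 379.5 with a median of 42.2. The members just inside the rank limit were nearest apt-9 (26.06), srh-154 (26.04) and C25G6.1 (25.87), and the distal E-box regions just outside it were nearest sdz-19 (25.86), tbc-16 (25.85) and Y7A9A.1 (25.68). The values on either side of the limit differed by less than 1 unit of signal value. Optimal peaks made up 122 of the 252 (48.4%), against 25% of all strongest regions, 100 of the 813 distal regions without an E-box (12.3%) and 149 of the 264 promoter E-box regions (56.4%). Signal and E-box were both part of the selection, so these shares describe the lists and were not tested.

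The lists of the 2 replicates were used for a count that the pooled ranking does not give directly, although the pooled list was made from the same libraries. Among equally many strongest regions of replicate 1 were 167 of the 252 members (66.3%, against 51.3% of all strongest pooled regions), and among those of replicate 2 were 185 (73.4%, against 57.0%). Both held 132 members, 35 were in that of replicate 1 only, 53 in that of replicate 2 only and 32 in neither. Of the 122 members that were optimal peaks 110 were in both, and of the other 130 members 22 were in both. For comparison, 146 of 813 distal regions without an E-box and 163 of 264 promoter E-box regions were in both. Each region was matched to the strongest overlapping region of a replicate, so neighbours can share a match. The members nearest C18E3.3 at ranks 250 and 1650 share theirs (ranks 318 and 227 in replicates 1 and 2). For the weaker one the replicate summits lay 180 and 132 bp from the pooled summit.

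Every member overlapped some region of replicate 2, and 242 of 252 overlapped one of replicate 1. Such overlap was common, as each replicate list holds 30000 regions. Of the 813 distal regions without an E-box, 780 overlapped a region of replicate 2 and 746 one of replicate 1. The 264 promoter E-box regions did so in 258 and 251. Some members rested on 1 replicate: the region in an intron of npr-8 ranked 437 in replicate 1 and 25980 in replicate 2, and the one nearest ins-35, an insulin-like peptide gene, ranked 28908 and 1977. Choosing distal E-box regions separately in each replicate list by the same rule gave 202 and 220 (211 ± 12.7, SD, n = 2), or 18.6% and 20.2% of that list's distal summits. The median distance of the replicate summit from the pooled summit was 16 bp in replicate 1 and 11 bp in replicate 2.

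**Figure D2:**
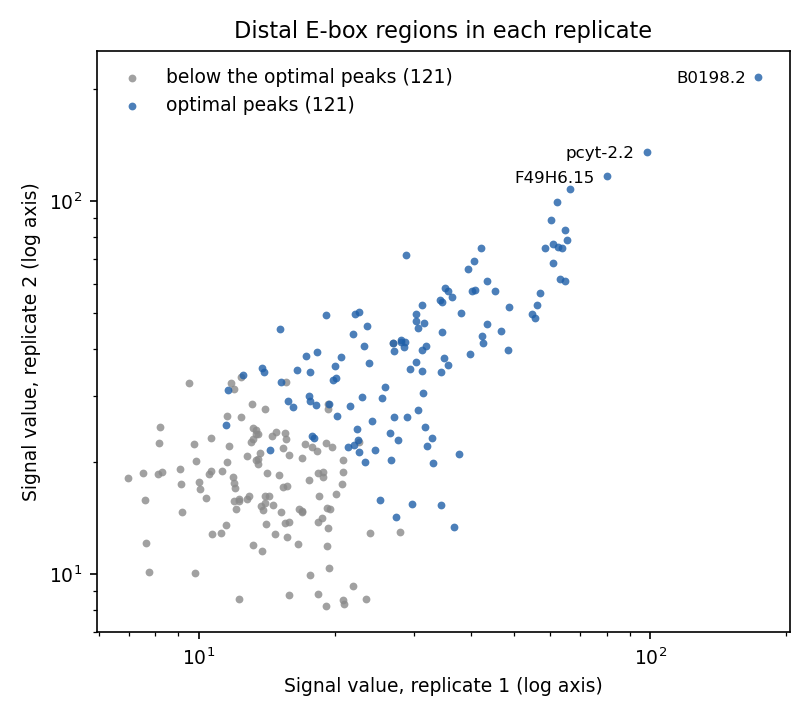
Deposited signal value of each distal E-box region in replicate 1 (x axis, log scale) and replicate 2 (y axis, log scale), for the 242 members that overlap a region in both lists, coloured by whether the region is an optimal peak. The strongest, nearest B0198.2, had 173.3 and 214.9, and members below the optimal peaks lie at the lower left.

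CACCTG was present in 189 members (75.0%) and CAGCTG in 73 (29.0%), with 10 holding both. Promoter E-box regions had CAGCTG in 89 of 264 (33.7%), and the shares of 29.0% (95% interval 23.4 to 35.0) and 33.7% (28.0 to 39.8) were not told apart (two-sided Fisher's exact test, p = 0.256, adjusted p = 0.384, Benjamini-Hochberg over 6 tests). In replicate 2 taken alone the difference was −9.94 percentage points with an adjusted p of 0.0405 by the same exact test. Regions are not biological replicates, so this and the following p-values compare lists of regions from the same 2 libraries, and the intervals cover counting error only.

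The 252 windows held 291 E-boxes. In 37 of them (14.7%) there were at least 2, against 18 of 400 (4.50%) lower-ranked distal E-box regions and 43 of 264 (16.3%) at promoters. The 39 neighbouring pairs lay 10 to 82 bp apart, with a median of 35 bp. Only the regions nearest nas-39 (rank 896), an astacin protease gene, and cfz-2 (rank 1103), a Frizzled receptor gene, had 3, and the sequences above show that the CAGCTG sites of the nas-39 window are repeated with the bases between them.

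The E-box nearest the summit lay closer to it in the members than in lower-ranked regions. The E-box nearest the summit had a median distance of 15.5 bp in the members, 22.5 bp in the lower-ranked distal E-box regions and 16.5 bp at promoters. It was wholly within 25 bp of the summit in 163 members (64.7%) and in 209 of 400 lower-ranked regions (52.3%). The distance within the window was not used by the rule, but the signal rank was, and no test was made. At least 2 E-boxes were present in 14.7% of members and 4.50% of the lower-ranked regions. A window with several has a smaller nearest distance by counting alone, and this was not separated.

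The bases beside the E-box also differed between members and lower-ranked regions. Reading each site as CACCTG, the base at position −2 (counting away from the hexamer, with −1 next to its 5′ end) was A or T in 88.7% of 213 sites in members (95% interval 83.7 to 92.6) and in 63.0% of 246 sites in lower-ranked distal regions (56.6 to 69.0). At −3 the shares were 84.5% and 54.9%. On the 3′ side, position +1 was C or T in 79.8% (73.8 to 85.0) and 55.7% (49.2 to 62.0), and was A in 7.51% and 28.0%.

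Promoter E-box regions had similar shares, with A or T in 90.7% at −2 and 86.5% at −3. Members among the optimal peaks and below them did as well, with 89.4% and 88.0% at −2. The windows of B0198.2 and gldi-3 above show such sites, CACCTG preceded by A or T at −2 and followed by T. These counts describe letters around a selected hexamer and were not tested.

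TTC and GAA separated by 3 bases appeared within 50 bp of the summit in 60 members (23.8%), a pair of triplets noticed in the windows of the strongest regions and counted afterwards, without a test. TTCNNNGAA reads the same on both strands, was searched in the same 101-bp window, and overlapped an E-box in 0 of the 60. It was present in 41 of the 122 members that were optimal peaks (33.6%, 95% interval 25.3 to 42.7) and in 19 of the other 130 (14.6%, 9.04 to 21.9), against 533 of 8739 lower-ranked distal regions (6.10%). Of the 20 strongest members 10 had it. Those were the regions at B0198.2, pcyt-2.2, F49H6.15, mxl-3, oac-24, gldi-3, egl-47, pptr-2, glb-27 and C46C11.3, and in 8 of them it lay nearer the summit than the E-box. Over all 60 members with the pair it lay nearer in 29, with a median distance from the summit of 16 bp for the pair and 15.5 bp for the E-box, and among the 41 optimal peaks in 22.

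In the B0198.2 region the pair of triplets was centred −4 bp from the summit and the nearest E-box −18.5 bp, and in the egl-47 region −4 and 37.5 bp. In the mxl-3 region the distances were 4 and −31.5 bp. Regions without an E-box held the pair too. Over all strongest distal regions it was present in 23.8% with an E-box and in 11.1% (90 of 813) without. Among distal optimal peaks without an E-box it was present in 33 of 100 (33.0%), and in the next block of ranks in 22.2% of regions with an E-box and 9.68% of regions without. Among promoter E-box regions that were optimal peaks it was present in 63 of 149 (42.3%). With 2 bases between them (TTCNNGAA) the triplets were present in 6.35% of members (95% interval 3.67 to 10.1) and 6.64% of lower-ranked distal regions. Lower-ranked distal regions with an E-box had 2.75% (1.38 to 4.87), and 6% for the spacing of 3. Among optimal peaks the spacing of 2 was present in 5.74% of members, 1% of distal regions without an E-box and 10.7% of promoter E-box regions. With 4 bases between them (TTCNNNNGAA) the shares were 9.13% of members (95% interval 5.87 to 13.4) and 5.49% of lower-ranked distal regions. Lower-ranked distal regions with an E-box had 4.25%. Among optimal peaks the spacing of 4 was present in 9.84% of members (5.19 to 16.55), an interval that holds the lower-ranked 5.49%. It was present in 15% of distal regions without an E-box (8.65 to 23.5) and in 14.1% of promoter E-box regions (8.94 to 20.7), above the lower-ranked share.

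**Figure D3:**
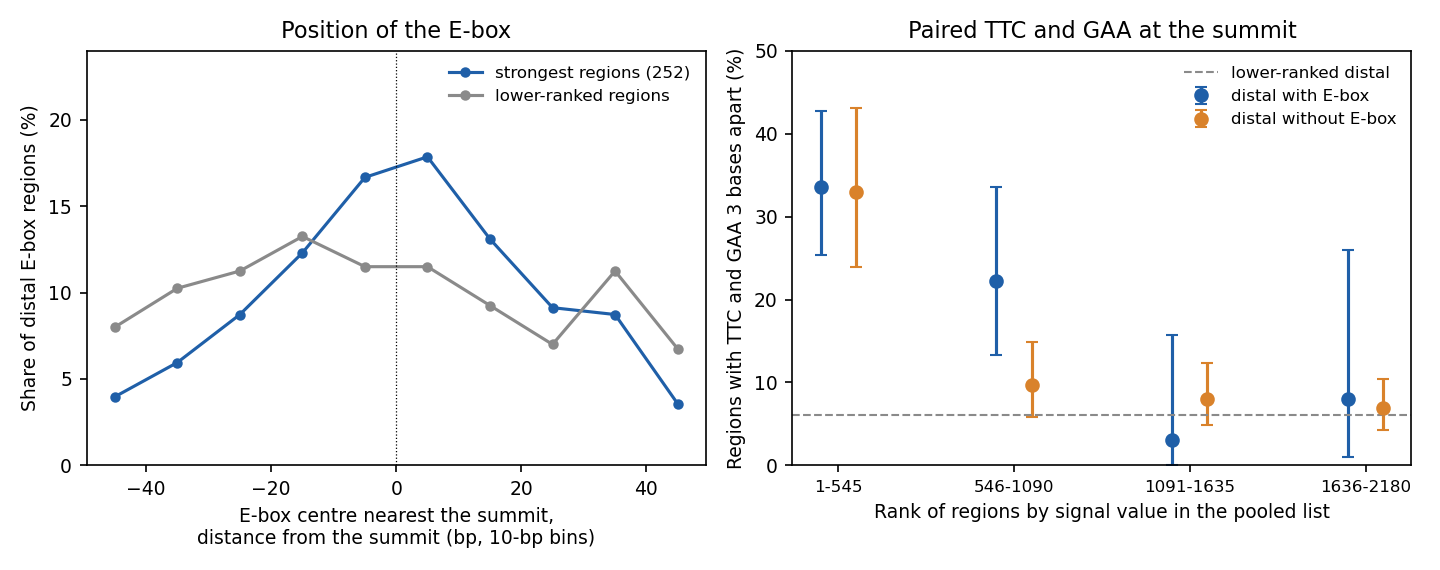
Left, share of distal E-box regions (percent) by distance of the E-box centre nearest the summit (bp, 10-bp bins) for the 252 strongest and 400 lower-ranked regions; the strongest peak around the summit. Right, share of distal regions with TTC and GAA 3 bases apart (percent, with 95% Clopper-Pearson intervals) by rank, with and without an E-box; it was 33.6% and 33.0% among the optimal peaks, and the dashed line marks 6.10% in lower-ranked distal regions.

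A pseudogene start lay in reach (the summit at most 2000 bp before it or 500 bp past it) of more distal regions with an E-box than without one. The counts were 31 of 252 (12.3%) and 38 of 813 (4.67%), an odds ratio of 2.86 (two-sided Fisher's exact test, adjusted p = 0.000337), and the share was 4.15% over all lower-ranked distal regions and 7.75% over those with an E-box. The rule removed starts of protein-coding genes only, so starts of pseudogenes remained among the distal regions. The call ended in replicate 1 taken alone (10.9% against 6.01%, adjusted p = 0.0604 by the same exact test) and among the optimal peaks alone (13.9% against 5.00%, adjusted p = 0.121). Of the 31 regions 21 were on chromosome V, as were 21 of the 38 without an E-box and 141 of 363 lower-ranked ones. The difference between regions with and without an E-box kept its direction on that chromosome alone (30% against 15.3%, adjusted p = 0.0866, exact test). It did so too on the others (5.50% against 2.52%, adjusted p = 0.134, exact test), in both cases without passing the threshold.

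**Figure D4:**
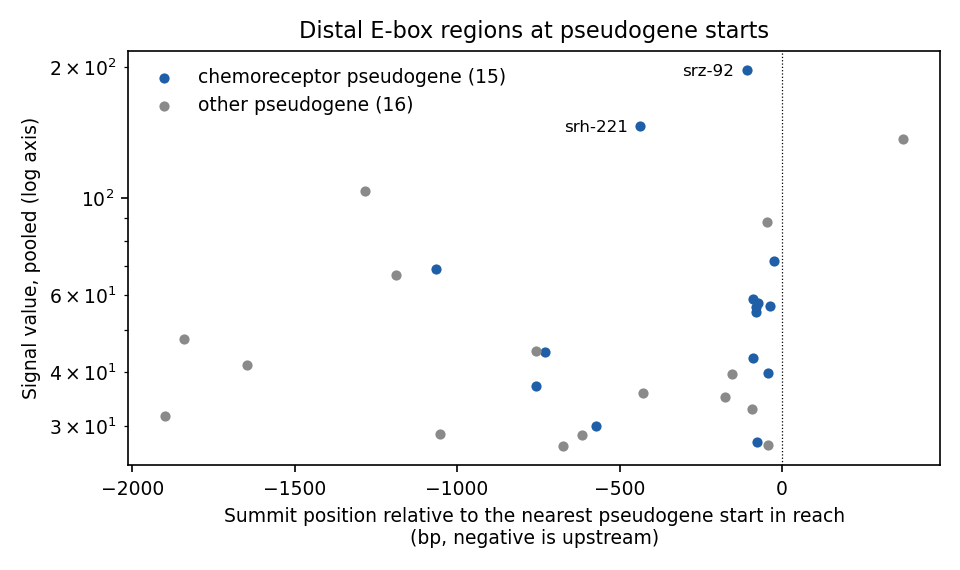
Pooled signal value (y axis, log scale) of the 31 distal E-box regions with a pseudogene start in reach, by position of the summit relative to the nearest such start (x axis, bp, negative upstream). Regions whose nearest pseudogene is a chemoreceptor pseudogene are in blue, and 9 of them lie 26 to 88 bp upstream of the start.

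Chemoreceptor pseudogenes, which derive from the large families of seven-transmembrane receptors of worm sensory neurons, were in reach of 16 members (6.35%), of 13 distal regions without an E-box (1.60%) and of 77 lower-ranked distal regions (0.881%). Within 200 bp upstream of a chemoreceptor pseudogene start lay 10 members, 1 distal region without an E-box and 8 lower-ranked distal regions. The strongest of these was the region at srz-92 (rank 9), 108 bp before the pseudogene, with a pooled signal value of 197.3 and values of 80.2 and 116.4 in replicates 1 and 2. It ranked 11 in both replicate lists. Its nearest protein-coding start, F49H6.15, was 4241 bp away.

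The 10 windows follow to show where their E-boxes lie before the pseudogene starts, a set chosen after its values were seen. Each is read on the strand of its pseudogene from RefSeq WBcel235, with E-boxes and TTCNNNGAA in capitals: V:17030580-17030680 (+, srz-92), V:17452600-17452700 (+, srh-161), V:17450670-17450770 (+, srh-156), V:17448209-17448309 (+, srh-157), V:17188667-17188767 (−, srh-202), V:15847337-15847437 (−, srh-150), II:2579625-2579725 (−, sri-75), V:15844252-15844352 (−, srh-152), V:17479380-17479480 (−, srh-110) and V:7422963-7423063 (−, srh-126).
srz-92: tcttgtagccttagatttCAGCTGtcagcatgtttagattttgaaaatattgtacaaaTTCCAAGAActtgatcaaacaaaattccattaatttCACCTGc
srh-161: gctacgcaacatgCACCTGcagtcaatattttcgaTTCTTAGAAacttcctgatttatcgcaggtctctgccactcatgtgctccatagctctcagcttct
srh-156: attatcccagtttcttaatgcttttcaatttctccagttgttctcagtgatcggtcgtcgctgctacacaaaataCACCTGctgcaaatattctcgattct
srh-157: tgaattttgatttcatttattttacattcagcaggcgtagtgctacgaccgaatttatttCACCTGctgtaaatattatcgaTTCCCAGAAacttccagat
srh-202: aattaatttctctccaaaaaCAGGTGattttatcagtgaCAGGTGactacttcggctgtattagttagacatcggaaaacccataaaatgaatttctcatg
srh-150: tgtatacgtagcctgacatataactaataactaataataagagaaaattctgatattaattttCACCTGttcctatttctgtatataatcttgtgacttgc
sri-75: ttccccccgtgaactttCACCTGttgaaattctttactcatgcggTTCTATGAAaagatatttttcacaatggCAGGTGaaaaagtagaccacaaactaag
srh-152: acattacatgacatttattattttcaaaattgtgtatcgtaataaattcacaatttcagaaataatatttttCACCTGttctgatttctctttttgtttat
srh-110: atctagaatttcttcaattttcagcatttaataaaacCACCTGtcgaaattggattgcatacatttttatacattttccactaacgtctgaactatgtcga
srh-126: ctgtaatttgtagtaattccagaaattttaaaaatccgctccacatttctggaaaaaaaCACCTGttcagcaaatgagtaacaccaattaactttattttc

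The centre of the E-box nearest the summit lay 45.5 to 137.5 bp upstream of the annotated pseudogene start in these 10, with a median of 60.5 bp. The 10 were picked to lie within 200 bp upstream, so this range describes the set. Read toward the pseudogene, the site was CACCTG in 7, CAGGTG in 2 and CAGCTG in 1. The region with CAGCTG, at srz-92, also holds a CACCTG site 46.5 bp from the summit toward the pseudogene. That further site was not counted but falls in the band given next. In 9 of the 10 the E-box nearest the summit lay 45 to 66 bp upstream, a band that fits their own values. Of 68 promoter E-box regions at chemoreceptor genes, 14 had it in that band and 44 within 200 bp upstream, with a median of 102.5 bp. Those 68 were not picked by that distance, so the sets are unlike, and no test was made. The srh windows belong to related genes, so they are not independent of each other.

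The srh-161 region (rank 217) had a pooled signal value of 71.6 and values of 22.2 and 49.8 in replicates 1 and 2. At srh-156 (rank 323) they were 58.6, 31.3 and 30.6, and at srh-157 (rank 335) 57.5, 18.3 and 39.4. These 3 lie side by side, and with a region nearest srh-154 (rank 2120) they span 12172 bp of chromosome V. The lowest of the 10 was at srh-126 (rank 1678), which ranked 3864 in replicate 1 and 10561 in replicate 2.

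Not every region with a pseudogene in reach lay at its start. The srh-221 pseudogene began 436 bp from the summit at rank 24, whose signal values were 146.7 pooled and 62.2 and 99.7 in the replicates. The summit at rank 37, in an intron of ncs-5, was 372 bp downstream of the start of the pseudogene C54E10.t4, and the nhr-144 pseudogene began 1282 bp from the summit at rank 86. The summit at rank 133 was 46 bp upstream of the pseudogene F58E2.1.

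Repeated sequence can split or misplace reads between copies. Of all 252 summit windows, 2 held any 36-base word that occurs more than once in the nuclear genome, those nearest srz-14 (25.8% of its words) and nas-39 (33.3%). None of the chemoreceptor pseudogene windows printed above did.

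The share of summits in introns did not differ detectably between distal regions with an E-box (102 of 252, 40.5%, 95% interval 34.4 to 46.8) and without (335 of 813, 41.2%, 37.8 to 44.7), with an adjusted p of 0.884 by Fisher's exact test. The median length of the introns was 3246 bp for the members, 1856 bp for the distal regions without an E-box and 1123 bp for lower-ranked distal regions, and 52 of the 102 members lay in intron 1 of some transcript, against 155 of 335 and 1222 of 3667. Another 111 members were intergenic, 33 were in coding exons, 3 in pseudogenes, 2 in 5′ UTRs and 1 in a non-coding RNA exon. No member had its summit in a 3′ UTR, against 32 of the 813 distal regions without an E-box, a difference that was not tested.

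Starts of further transcripts of protein-coding genes lay in reach of 34 members (13.5%) and of 123 distal regions without an E-box (15.1%), with an adjusted p of 0.733 by Fisher's exact test. Members with such a start included lin-28, glb-27 and dmd-6. Non-coding RNA starts other than piRNA genes lay in reach of 47 members (18.7%) and 222 distal regions without an E-box (27.3%), a difference of −8.66 percentage points (Fisher's exact test, adjusted p = 0.0122). Lower-ranked distal regions had 17.9%, close to the members. By the exact test the call ended among the optimal peaks alone (16.4% against 31%, adjusted p = 0.0939), among 8 times as many regions as optimal peaks (20.3% against 24.9%, adjusted p = 0.164), on chromosome V alone (17.1% against 19.7%, adjusted p = 0.712) and on the other chromosomes (19.2% against 28.8%, adjusted p = 0.0536).

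Of the kinds of non-coding gene, tRNA starts were in reach of 4 members (1.59%), 41 distal regions without an E-box (5.04%) and 127 lower-ranked distal regions (1.45%). Small nucleolar RNA starts were in reach of 1 member, of 21 distal regions without an E-box (2.58%) and of 83 lower-ranked distal regions (0.95%). With piRNA genes, further transcripts and pseudogenes counted too, 135 of the 252 members had no annotated start of any kind in reach. No matching count was made for other distal regions, so this number cannot be called high or low.

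**Figure D5:**
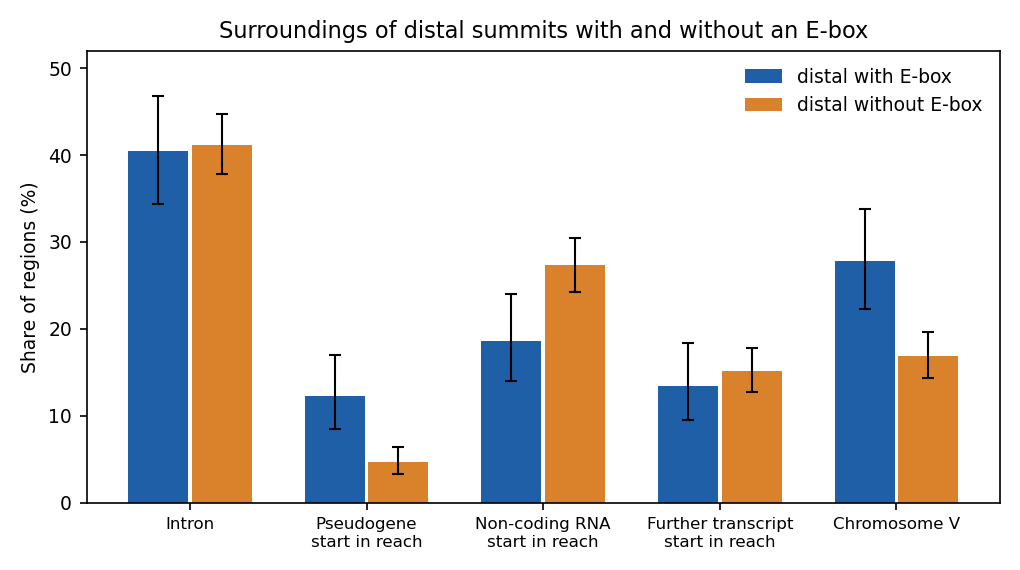
Share of distal summits (percent, bars from 0, with 95% Clopper-Pearson intervals) in introns, with 3 kinds of start in reach, and on chromosome V, for 252 regions with and 813 without an E-box. Pseudogene starts (12.3% against 4.67%) and chromosome V (27.8% against 16.9%) were more frequent with an E-box and non-coding RNA starts (18.7% against 27.3%) less frequent, among the strongest regions.

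Chromosome V held 70 members (27.8%, 95% interval 22.3 to 33.8) and 137 of the 813 distal regions without an E-box (16.9%, 14.3 to 19.6), with an adjusted p of 0.000741 by Fisher's exact test. Chromosome V carries many of the chemoreceptor gene clusters of the worm. Promoter E-box regions had 38.6% there and lower-ranked distal E-box regions 21%. By the exact test the call ended in replicate 1 taken alone (25.2% against 18.9%, adjusted p = 0.103) and among the optimal peaks alone (32.8% against 23.0%, adjusted p = 0.215). Chromosome X held 64 members, II 45, IV 39, I 22 and III 12.

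The distance from summit to the nearest protein-coding start ran from 506 to 17404 bp with a median of 2788 bp, and the median was 3022 bp without an E-box. It was at most 5000 bp in 203 members and over 10000 bp in 7. The summit lay on the upstream side of that start in 101. Windows of members had a median G and C content of 36.6% against 32.7% without an E-box, a comparison that includes the bases of the E-box itself.

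The members fell into 225 loci when those within 10000 bp were joined, and 22 loci held several members, 49 in all. The cluster from C13G3.1 to pptr-2 on chromosome V had 4 members over 18471 bp at ranks 51, 400, 825 and 33, and that at srh-149 and srh-147 had 3 over 3085 bp. A promoter region at the member's nearest gene was also among the strongest for 50 members (19.8%), among them acl-12, srh-229, C13G3.1 and F32D8.1 of the 20 strongest. The same share was not counted for other distal regions, so 19.8% cannot be called high or low.

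Lists of gene families, made from patterns in gene names and not complete, were counted by the nearest gene or by the host gene of an intron, with no test, beside the same count for other distal regions. Chemoreceptor families accounted for 28 members (11.1%), against 3.94% of distal regions without an E-box and 3.95% of lower-ranked distal regions. They included regions nearest str-84 (rank 86), in an intron of srv-15 (rank 134) and nearest srz-25 (rank 146). The summit at rank 146 lay inside the pseudogene srz-57, 2693 bp downstream of the srz-25 start. With chemoreceptor pseudogenes in reach added, the count was 30 of 252 (11.9%), against 4.43% without an E-box and 4.49% lower-ranked. These overlap the pseudogene counts above, because pseudogenes lie among genes of the same families.

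Listed receptors for neurotransmitters and peptides accounted for 14 members (5.56%), against 2.21% without an E-box and 2.22% lower-ranked. The strongest of these was 2884 bp upstream of tkr-2 (rank 375), a tachykinin receptor gene, with a pooled signal value of 54.4 and values of 32.8 and 23.1 in the replicates. A further region 5722 bp upstream of tkr-2 ranked 506 in replicate 1 and 21830 in replicate 2. At npr-37, a neuropeptide receptor gene, lay a region upstream (rank 443) and another in an intron of 12971 bp (rank 454), and the region nearest npr-19 was at rank 485. Not on the list, and named after their values were seen, were the peptide receptor genes ntr-1 (ranks 336, in an intron, and 445), egl-6 (rank 428), sprr-1 (rank 559) and nmur-1 (rank 1064).

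Neuropeptide genes accounted for 5 members (1.98%, against 0.861% and 1.19%), with regions nearest nlp-60 (rank 197), flp-33 (rank 336), in an intron of ntr-1, nlp-21 (rank 588) and nlp-53 (rank 669). The nlp-60 region had replicate values of 19.2 and 49.6, and its summit in replicate 1 was 99 bp from the pooled summit.

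Nuclear hormone receptors, ligand-regulated transcription factors that are numerous in worms, accounted for 12 members (4.76%, against 2.95% and 1.64%). Regions upstream of nhr-43 stood at ranks 135 and 220 with replicate values of 48.5 and 39.9, and of 34.6 and 44.6, and nhr-258 (rank 161) and nhr-124 (rank 395) held regions in introns.

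The other lists had few members. For bHLH genes there were 2 (0.794%, against 0.984% without an E-box and 0.492% lower-ranked), both nearest mxl-3 (ranks 14 and 1435). Axon guidance and cell adhesion also had 2 (0.794%, against 0.738% and 1.20%). They were at lad-2 (rank 307), an L1-type adhesion protein gene, and casy-1 (rank 1107), a calsyntenin gene. The ion channel list had 1, at mec-10 (rank 625), a touch-receptor channel subunit. Its share was lower in members (0.397%) than without an E-box (1.48%) or in lower-ranked distal regions (2.00%). This list lacked the potassium channel genes kcnl-3 (rank 78), shk-1 (pooled signal value 89.2) and kcnl-1 (rank 574). Those were named after their values were seen and have no matching count in other distal regions. Homeobox genes had 1 (0.397%, against 0.369% without an E-box and 0.870% lower-ranked), in an intron of lin-11 (rank 1305). Collagens had 1 (0.397%, against 0.246% and 0.538%), at col-181 (rank 602). F-box, MATH and BTB families had 1 (0.397%, against 0.369% and 0.847%), at fbxb-58 (rank 1348). The lists of ADL neuron genes, C-type lectins and ribosomal proteins had 0 members, against 1 of 813 distal regions without an E-box for each of the 3 lists.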

How the data were processed

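The deposited peak lists on ce11 were used as the authors left them: 30000 regions per replicate and for the pooled replicates, which hold peaks and background, and 545 optimal peaks from the authors' reproducibility (IDR) step, which are the 545 pooled regions with the highest signal. Each deposited region has a signal value, a −log10 q-value and an offset of its summit from its start. The deposited −log10 q-value was not used to select regions. It was 2.316 for the strongest member, nearest B0198.2, and 1.363 at rank 543 (srh-152), the weakest member by signal among the optimal peaks. Below the optimal peaks it was 0.7466 at nas-39 (rank 896), 0.6134 at cfz-2 (rank 1103) and 0.4172 at C25G6.1 (rank 2176). A lower value means weaker support, so membership by rank is not in itself a call of HLH-4 binding. The aligner, the peak caller and how the signal was normalized are not given in the sources used, and the lists on ce10 were not used. The depth of each sample is unknown, so no interval accounts for it. Of the members, 30 are narrower than the full region width of 330 bp.

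Members were chosen by pooled signal rank (the 2180 strongest regions), E-box and distance from gene starts as described, and the members and the 13 gene lists were chosen with earlier results of these data known. Summits were compared with Ensembl release 115 gene models (19973 protein-coding genes) and the RefSeq WBcel235 sequence. All 2128 pseudogenes were named from the RefSeq annotation of the same build. Lower-ranked distal regions had a rank of 15001 or beyond and no overlap with an optimal peak.

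Numbers of regions were compared with Fisher's exact test, two-sided (scipy 1.17.1), with Benjamini-Hochberg adjustment over 6 tests and a threshold of 0.05. The adjustment covered 1 test fewer for chromosome V alone or left out and for starts of all transcripts. Intervals are Clopper-Pearson at 95%. The search and the test were tested on simulated data. Named were the 20 strongest members, up to 4 per gene list, up to 6 with a pseudogene start in reach, 3 on each side of the rank limit and those with 3 E-boxes. The npr-8, ins-35, second tkr-2 and srz-14 regions, the further chemoreceptor pseudogene regions, those of the joined loci and the TTCNNNGAA count were chosen after values were seen. Alternatives were the 545, 1090 or 4360 strongest regions, other E-box windows, start windows and start definitions, each replicate alone, chromosome V alone or left out, and 1 region per 10000 bp. The last 3 of these were chosen after seeing the data.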

Additional observations from a re-analysis of the deposited data

How the results depend on the processing

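The members numbered 122 among the optimal peaks alone, 163 with an E-box window of 25 bp either side and 118 with a start window of 5000 bp before to 1000 bp after the start. In both replicate lists 132 were among the strongest regions, and 73 among as many as there are optimal peaks. The 73 include the member nearest C18E3.3 at rank 1650, which shares its replicate regions with a stronger member. Among the optimal peaks the differences (with minus without an E-box, in percentage points) were 8.93 for pseudogene starts, −14.6 for non-coding RNA starts and 9.79 for chromosome V, none past the threshold; fewer regions were tested there. With 8 times as many regions as optimal peaks the non-coding difference was −4.61 and no longer passed. On chromosome V alone the pseudogene difference was 14.7 and the non-coding one −2.57, and without it 2.98 and −9.62, none past the threshold. With 1 replicate left out the CAGCTG difference from promoters ran from −9.94 (replicate 1 left out, adjusted p = 0.0405 by the exact test) to −3.31, the pseudogene difference from 4.88 to 8.58, the chromosome V difference from 6.31 to 10.2 and the transcript start difference from −3.61 to 1.05. The intron and transcript start differences never passed the threshold but changed sign. For introns they were 1.53 with the 25 bp window, 0.88 with the 5000 bp start window, 0.47 with starts of all transcripts, 1.65 without chromosome V and 0.35 with 1 region per 10000 bp. For transcript starts they were 1.32 with the same larger number of regions, 0.70 with the 25 bp window and 2.35 with the 5000 bp start window. Where no fewer regions were tested, the cause was not tested. No paired analysis was possible because there is 1 group. Unknown depth limits every statement on weak regions.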
